A study of Homo sapiens with 12 samples.

Results

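The genes of MHC class I antigen presentation were measured in Daoy cells, an established human medulloblastoma (MB) line, kept in medium conditioned by astrocytes (ACM) or in control medium (DMEM). The genes were chosen by name, as 9 parts of the class I pathway: the heavy chains HLA-B, HLA-C, HLA-E and HLA-F, the light chain B2M, the transporter subunits TAP1 and TAP2, the loading factor TAPBP and the regulator NLRC5. They were found through the RefSeq accession that the scanner files give for each probe, which tied 15 probes to the 9 genes. All 15 were among the 31078 probes (25275 genes) that passed the filter on dim signal, and all 15 were well above background on each of the 12 arrays. Where a gene had several probes, the one with the highest mean signal led and the others are given beside it.

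MHC class I molecules carry short peptides from inside the cell to its surface, where CD8 T cells and natural killer cells read them. The proteasome cuts proteins into peptides, TAP1 and TAP2 pump the peptides into the endoplasmic reticulum, and TAPBP (tapasin) holds an empty class I molecule at the pump until a peptide fits. A heavy chain is stable at the surface only when bound to B2M, beta-2-microglobulin. HLA-B and HLA-C are classical heavy chains that present to T cells, whereas HLA-E and HLA-F are less variable and are also ligands of natural killer cell receptors. NLRC5 is the transactivator that switches on class I genes together with DNA-bound RFX, CREB and NF-Y factors, and interferons raise the whole set. Tumours of the brain are often described as low in class I.

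RNA was taken from 4 groups of 3 cultures, which were P1 ACM, P1 DMEM, P3 ACM and P3 DMEM. P1 and P3 stand for 1 and 3 passages of 48 h in the medium. ACM was collected from hippocampal astrocytes of newborn Sprague Dawley rats, and both media contained DMEM with fetal bovine serum. All samples were 1 cell line with no genetic change between groups, so a culture and not a patient is the replicate. Cy3-labelled RNA of each culture was hybridised to 1 single-colour Agilent array. Of 7 markers of sonic hedgehog MB, the subgroup that Daoy is used to model, SFRP1, PDLIM3, GLI1, GLI2, HHIP and EYA1 were well above background on all 12 arrays, and ATOH1 did not pass the filter. Markers of other cells, such as ITGAM, PTPRC and AQP4, were also well above background on all 12. So were 74.2% to 94.6% of all probes on a given array, and detection alone does not mark the subgroup.

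A level is the log2 intensity relative to the 75th percentile of its array, so 1 unit is a doubling and levels are compared between arrays for 1 probe only. 2 features of the series bear on every comparison. First, the file headers place the arrays in 3 sets of 4 that share a scan start, taken here as the 3 slides. All of P1 ACM was on slide 1, together with the first replicate of P3 ACM. The remaining P3 ACM arrays shared slide 2 with the first and second replicates of P1 DMEM. On slide 3 were replicate 3 of P1 DMEM and all of P3 DMEM. No slide held ACM and DMEM of the same passage, so medium and slide cannot be told apart within a passage. The share of probes well above background was 90.9% to 94.6% on slide 1, 74.2% to 80.2% on slide 2 and 88.1% to 91% on slide 3. Second, the log2 table that the authors deposited beside the scanner files conflicts with them, because each of its 12 columns had the probe ranks of another sample's scanner file (Spearman 0.99997 or more) and lower correlations with the file of its own sample (0.9533 to 0.9918). Which labels are right could not be settled from the files. The scanner files are used below under their own labels, and values from the table under its labels are given beside the results.

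The promoters are shown first because interferon and NLRC5 act on class I genes through letters in this region. Whether these letters bear on the levels measured here was not tested. Each sequence is the 250 bases before the RefSeq gene start in GRCh38.p14, written 5′ to 3′ on the strand of the gene, and the capitals mark letter matches on either strand. They are reference sequence, not that of the Daoy alleles. A window was found for 7 of the 9 genes, and HLA-E and NLRC5 are named only. The windows of HLA-B (chr6:31357180-31357429, minus strand) and HLA-C (chr6:31272093-31272342, minus strand) are given for the classical heavy chains.
HLA-B: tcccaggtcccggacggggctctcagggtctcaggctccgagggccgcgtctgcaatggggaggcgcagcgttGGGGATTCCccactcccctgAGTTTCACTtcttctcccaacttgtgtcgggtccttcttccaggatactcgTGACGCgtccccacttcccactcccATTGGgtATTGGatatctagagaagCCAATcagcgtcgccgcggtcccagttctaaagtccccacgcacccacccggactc
HLA-C: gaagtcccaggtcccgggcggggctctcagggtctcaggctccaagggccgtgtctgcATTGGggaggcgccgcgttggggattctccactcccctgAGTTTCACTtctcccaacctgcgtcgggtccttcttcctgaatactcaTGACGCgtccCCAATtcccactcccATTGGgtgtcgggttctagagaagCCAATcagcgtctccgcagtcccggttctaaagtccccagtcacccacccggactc
The window of B2M (chr15:44711267-44711516, plus strand) follows, with those of TAP1 (chr6:32853705-32853954, minus strand) and TAPBP (chr6:33314079-33314328, minus strand), since these 3 encode the light chain, the pump and tapasin.
B2M: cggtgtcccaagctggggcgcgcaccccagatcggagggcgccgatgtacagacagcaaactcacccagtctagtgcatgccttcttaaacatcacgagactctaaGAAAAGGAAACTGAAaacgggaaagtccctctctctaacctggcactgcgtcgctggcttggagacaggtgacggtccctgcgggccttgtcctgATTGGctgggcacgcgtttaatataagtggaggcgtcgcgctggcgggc
TAP1: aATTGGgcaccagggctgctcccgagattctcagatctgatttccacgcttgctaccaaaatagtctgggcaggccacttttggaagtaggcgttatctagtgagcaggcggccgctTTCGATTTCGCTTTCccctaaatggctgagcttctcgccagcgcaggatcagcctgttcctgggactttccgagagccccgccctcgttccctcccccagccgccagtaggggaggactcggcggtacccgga
TAPBP: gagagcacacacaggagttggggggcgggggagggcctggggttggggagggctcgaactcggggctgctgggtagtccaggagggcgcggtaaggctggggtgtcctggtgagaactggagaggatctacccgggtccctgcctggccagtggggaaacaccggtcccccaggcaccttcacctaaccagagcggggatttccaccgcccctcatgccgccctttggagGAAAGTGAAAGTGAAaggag

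The repeat GAAANNGAA, a core to which interferon regulatory factors bind, was found in the windows of 5 of the 7 genes (HLA-F, B2M, TAP1, TAP2 and TAPBP) and in 6.88% of all 35114 promoter windows of the same length. In B2M, TAP1 and TAPBP it occurred in 2 copies that share bases, printed as 1 run of capitals. HLA-B and HLA-C instead held AGTGAAACT on the other strand, printed as AGTTTCACT, at 157 and 153 bases before the start, and 0.279% of all windows hold these letters. TGACGC, the core of the X2 element through which CREB factors take part in NLRC5 action, was found in HLA-B, HLA-C and TAP2 and in 7.67% of windows. The CCAAT box of NF-Y was found in HLA-B, HLA-C, HLA-F, B2M and TAP1, and is common, at 32% of windows. GGGGATTCC, a site of NF-kB, was found in HLA-B alone (0.253% of windows), and the STAT motif TTCNNNGAA in a further TAP1 window that is not printed (6.57%). The letters of the AGTGAAACT and GGGGATTCC searches were set after the sequences had been seen, and no match was tested for binding. TAP1 lies head to head with PSMB9, an immunoproteasome subunit, whose own window (chr6:32853942-32854191, plus strand) overlaps the one printed for TAP1.

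Of the 9 genes, 7 lie on chromosome 6 in the MHC, from HLA-F (chr6:29723434-29738532) and HLA-E (chr6:30489509-30494194) through HLA-C (chr6:31268749-31272092) and HLA-B (chr6:31353875-31357179) to TAP2 (chr6:32821831-32838739), TAP1 (chr6:32845209-32853704) and TAPBP (chr6:33299694-33314078). B2M lies on chromosome 15 (chr15:44711517-44718145) and NLRC5 on chromosome 16 (chr16:56989557-57083520). These are gene positions of the RefSeq table of GRCh38.p14, while the array design was annotated on an older build. The sequences and positions of the probes were not used here. The class I heavy chains are near-identical over long stretches, so a probe of 1 of them may also bind transcripts of another, and their separate values cannot be told apart from that.

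The levels of the 9 genes varied to different degrees over the 12 arrays. From the lowest to the highest array the lead probe differed 1.34-fold for HLA-E, 1.45-fold for TAP2, 1.71-fold for HLA-B, 1.72-fold for HLA-F, 1.99-fold for HLA-C, 2.24-fold for TAP1, 2.37-fold for NLRC5, 3.04-fold for TAPBP and 3.14-fold for B2M. In signal, 8 lead probes were in the top tertile of genes and that of NLRC5 in the middle tertile.

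**Figure D1:**
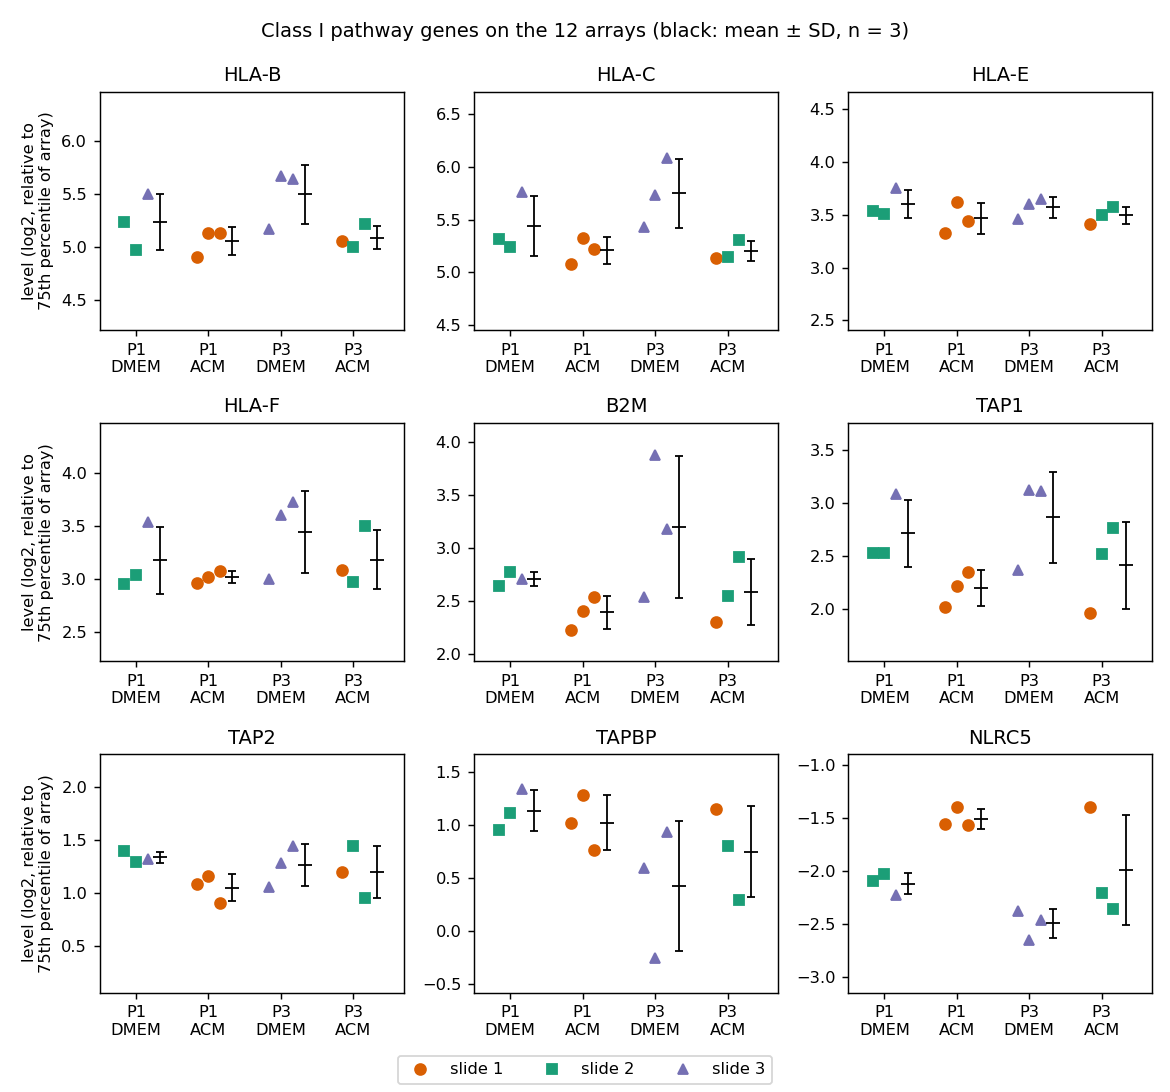
Level of the lead probe of each class I pathway gene on each array (log2 intensity relative to the 75th percentile), with symbols for the slide and black bars for the group mean ± SD (n = 3). The P3 DMEM arrays of B2M spread from 2.54 to 3.88, and the 4 slide 1 arrays of NLRC5 lie above the other arrays, at -1.57 to -1.40.

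The classical heavy chain HLA-B was at 4.90, 5.13 and 5.13 in P1 ACM and at 5.23, 4.97 and 5.50 in P1 DMEM. After 3 passages it was at 5.05, 5.0 and 5.21 in P3 ACM and at 5.17, 5.67 and 5.64 in P3 DMEM. The media overlapped at both passages, and the 3 highest arrays were P3 DMEM replicates 2 and 3 and P1 DMEM replicate 3. The limma difference (ACM minus DMEM, as for all differences below) was -0.18 ± 0.19 (SE) at P1, with a 95% interval of -0.60 to 0.24, and -0.41 ± 0.19 at P3, with an interval of -0.83 to 0.02. In bulk RNA of this kind, fewer cells with the transcript and less transcript per cell cannot be told apart. The second HLA-B probe behaved alike, at -0.14 for P1 and -0.36 for P3.

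HLA-C was at 5.08, 5.33 and 5.22 in P1 ACM, at 5.32, 5.24 and 5.76 in P1 DMEM, at 5.14, 5.15 and 5.31 in P3 ACM and at 5.43, 5.73 and 6.08 in P3 DMEM. At P3 each ACM array lay below each DMEM array, and at P1 the media overlapped. The P3 difference of -0.54 ± 0.20 (interval -0.99 to -0.10) had an unadjusted limma p of 0.0212 and an adjusted p of 0.678. It was 1.46-fold in size, short of the 2-fold threshold, and was -0.38 (limma p of 0.0994) without P3 DMEM replicate 3, the array with the highest HLA-C level. The P1 difference was -0.23, with an interval of -0.67 to 0.22.

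HLA-E, whose peptides come mostly from the leader sequences of other class I chains, varied least. It was at 3.33, 3.62 and 3.44 in P1 ACM, at 3.53, 3.51 and 3.75 in P1 DMEM, at 3.41, 3.50 and 3.57 in P3 ACM and at 3.46, 3.60 and 3.65 in P3 DMEM. The media overlapped at both passages, with intervals of -0.46 to 0.19 at P1 and -0.41 to 0.25 at P3.

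HLA-F, which can reach the surface as an open heavy chain without peptide, was at 2.96, 3.02 and 3.07 in P1 ACM and at 2.95, 3.04 and 3.54 in P1 DMEM. It was at 3.08, 2.97 and 3.50 in P3 ACM and at 3.00, 3.60 and 3.73 in P3 DMEM, so the media overlapped at both passages. The differences were -0.16 at P1 (interval -0.68 to 0.36) and -0.26 at P3 (interval -0.78 to 0.26). Its second probe, matched to another transcript of the gene, gave 0.47 at P1 (interval -0.18 to 1.11) and 0.05 at P3, the opposite sign of the lead probe at both passages.

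B2M is shared by all class I molecules, and its probe was spotted 10 times on each array. It was at 2.23, 2.41 and 2.54 in P1 ACM and at 2.64, 2.77 and 2.71 in P1 DMEM, each ACM array below each DMEM array. It was at 2.30, 2.55 and 2.92 in P3 ACM and at 2.54, 3.88 and 3.18 in P3 DMEM, where the media overlapped and P3 DMEM replicate 2 was highest. The group means were 2.39 ± 0.16 (SD, n = 3) in P1 ACM, 2.71 ± 0.06 in P1 DMEM, 2.59 ± 0.31 in P3 ACM and 3.20 ± 0.67 in P3 DMEM. The difference was -0.31 ± 0.29 (SE) at P1, with an interval of -0.96 to 0.33 and a limma p of 0.309, which uses the spread of all 4 groups. At P3 it was -0.61 ± 0.29, with an interval of -1.25 to 0.04 and a limma p of 0.0632. Without P3 DMEM replicate 2 the P3 difference was -0.27, and without P3 DMEM replicate 1 it was -0.94.

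TAP1, an ATP-binding subunit of the peptide pump, was at 2.02, 2.22 and 2.35 in P1 ACM and at 2.53, 2.53 and 3.08 in P1 DMEM. Each P1 ACM array lay below each P1 DMEM array. It was at 1.96, 2.52 and 2.76 in P3 ACM and at 2.37, 3.12 and 3.11 in P3 DMEM, with P3 DMEM replicate 1 below 2 ACM arrays. The difference was -0.52 ± 0.27 at P1 (interval -1.11 to 0.08, limma p of 0.0848) and -0.46 ± 0.27 at P3 (interval -1.06 to 0.14, limma p of 0.12). Both intervals reached beyond a 2-fold lower level and included 0. With the replicate number as a block the P1 difference had an unadjusted limma p of 0.0166 and an adjusted p of 0.138. That the numbers pair the P1 cultures was taken from these same data and is not stated by the labels. At P3 the difference became -0.23 when ACM replicate 1 was left out and -0.71 when DMEM replicate 1 was, and the P1 difference was -0.33 without P1 DMEM replicate 3.

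TAP2, the partner subunit, was at 1.09, 1.16 and 0.91 in P1 ACM and at 1.40, 1.30 and 1.32 in P1 DMEM, again with each ACM array below each DMEM array. It was at 1.20, 1.45 and 0.96 in P3 ACM and at 1.06, 1.29 and 1.45 in P3 DMEM, which overlapped. The differences were -0.29 at P1 (interval -0.67 to 0.09) and -0.06 at P3 (interval -0.44 to 0.32). Its second probe, whose intensity was 39.8 to 203, gave 0.14 and 0.32.

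TAPBP was at 1.02, 1.28 and 0.76 in P1 ACM and at 0.95, 1.11 and 1.34 in P1 DMEM. It was at 1.15, 0.80 and 0.29 in P3 ACM and at 0.59, -0.26 and 0.93 in P3 DMEM. The media overlapped at both passages, and P3 DMEM replicate 2, the array with the highest B2M level, had the lowest TAPBP level. The differences were -0.12 at P1 (interval -0.80 to 0.57) and 0.33 at P3 (interval -0.36 to 1.02). The other 2 probes gave -0.04 and 0.34 at P1 and 0.30 and 0.36 at P3, so the 3 probes shared their sign at P3 and not at P1.

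NLRC5 was the 1 gene with a positive difference at both passages. It was at -1.56, -1.40 and -1.57 in P1 ACM and at -2.10, -2.03 and -2.23 in P1 DMEM, each ACM array above each DMEM array. It was at -1.40, -2.21 and -2.36 in P3 ACM and at -2.38, -2.65 and -2.46 in P3 DMEM, again without overlap. The P1 difference was 0.61 ± 0.23 (interval 0.10 to 1.11), with an unadjusted limma p of 0.0234 and an adjusted p of 0.146. The P3 difference was 0.51 ± 0.23, with an unadjusted limma p of 0.0504. The 4 arrays of slide 1, 3 of P1 ACM and 1 of P3 ACM, all lay above the 8 arrays of the other slides, and without that P3 ACM array the P3 difference was 0.21. The second NLRC5 probe, with an intensity of 63.5 to 176, gave -0.11 at P1 and -0.45 at P3, the opposite sign of the lead probe.

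**Figure D2:**
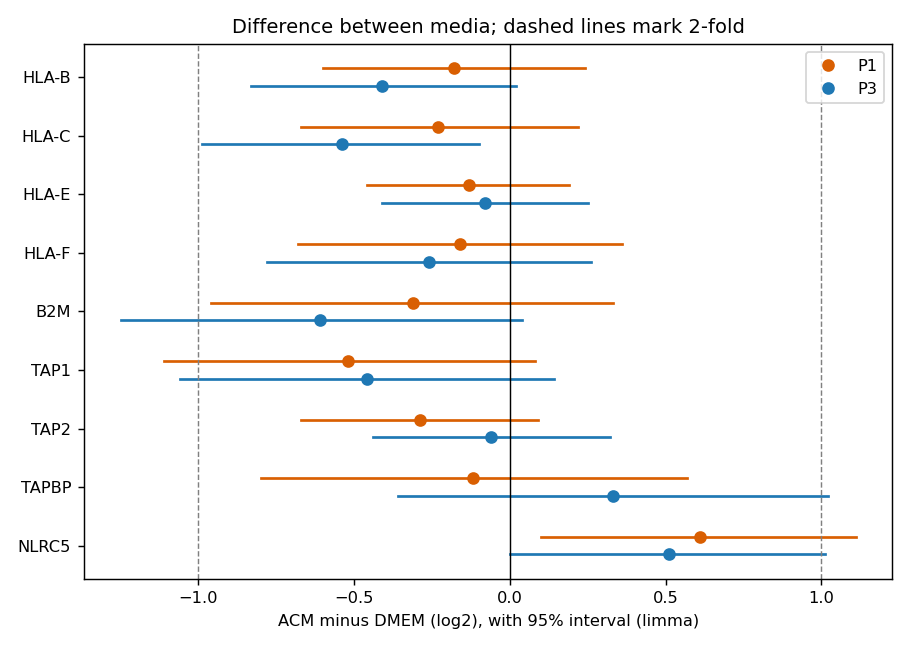
Difference between ACM and DMEM for the lead probe of each gene (log2, points) with its 95% limma interval (lines), at P1 and P3. The P1 interval of NLRC5 (0.10 to 1.11) and the P3 interval of HLA-C (-0.99 to -0.10) lie to 1 side of 0, and the dashed lines mark a 2-fold difference.

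The order of the 4 group means was the same for HLA-B, B2M and TAP1, with P1 ACM lowest, then P3 ACM, P1 DMEM and P3 DMEM. For HLA-C the means of P3 ACM (5.20 ± 0.09) and P1 ACM (5.21 ± 0.12) were next to each other at the bottom of the same order. NLRC5 ran the other way, from P3 DMEM (-2.50 ± 0.14) through P1 DMEM (-2.12 ± 0.10) and P3 ACM (-1.99 ± 0.52) to P1 ACM (-1.51 ± 0.10). TAPBP was lowest in P3 DMEM (0.42 ± 0.61) and highest in P1 DMEM (1.13 ± 0.19). In each of the 9 genes neighbouring means in the order differed by no more than the larger SD of the pair, with the exception of NLRC5 in P3 DMEM and P1 DMEM.

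The first comparison asked whether 1 passage in ACM changed class I transcripts. At P1 the study's call (more than 2-fold and p of 0.05 or less, here by limma and unadjusted) was met by 0 of the 9 genes and 0 of their 15 probes, where 13.6% of all genes met it (13.5% higher and 0.0989% lower in ACM). Of the 9, 1 (NLRC5) had an unadjusted p of 0.05 or less, against 24% of all genes. At an adjusted limma p of 0.05 the count was 0 among the 9 genes and 0% of all genes. By the methods' t-test, 3 of the 9 (B2M, TAP2 and NLRC5) had an unadjusted p of 0.05 or less, against 27.8% of all genes, and NLRC5 had an adjusted p of 0.037, where 8.29% of all genes were at 0.05 or less. In limma fits, NLRC5 also had an adjusted p of 0.0246 with the P1 arrays alone and of 0.0118 without P3 ACM replicate 1, where 19.2% and 20.5% of all genes were at 0.05 or less. With the replicate number as a block, which the P1 samples were taken to share, 2 of the 9 (TAP1 and NLRC5) had an unadjusted limma p of 0.05 or less, against 24.8% of all genes. The arrays of the media did not overlap for 4 of the 9 genes, against 36% of all genes, and in 3 of these (B2M, TAP1 and TAP2) the ACM arrays were below, which held for 5.38% of all genes, while in NLRC5 they were above, which held for 30.7%. The difference was negative for 8 of the 9 and for 36.1% of all genes. Of the 9 lead probes 8 were in the top tertile of signal, where the median P1 difference was -0.08, against 0.84 in the bottom tertile. Shares within the top tertile were not computed, so those of all genes are not a matched baseline for the 9.

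The median P1 difference was -0.18 over the 9 genes, 0.15 over all genes and -0.08 over the genes in the top tertile of signal. Quantile normalization moved these medians to -0.07, 0.00 and -0.02, so a shift of 0.15 at P1 depends on the scaling. Relative to all genes the 9 stood lower in both, and the sign of each of the 9 differences was the same in both. The 95% interval of the lead probe excluded a 2-fold change in either direction for 7 of the 9 genes, the exceptions being TAP1 and NLRC5. Those of the second HLA-F probe (-0.18 to 1.11) and the second TAP2 probe did not, and the slides are not taken into account. A p above the threshold does not show that a level was the same in both media.

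The second comparison asked the same after 3 passages. At P3 the call was met by 0 of the 9 genes and 0 of 15 probes, where 1.73% of all genes met it (0.914% higher and 0.819% lower in ACM). HLA-C alone had an unadjusted limma p of 0.05 or less, against 7.28% of all genes, and by the methods' t-test too HLA-C was the only 1 of the 9, against 4.42% of all genes. The arrays of the media did not overlap for 2 of the 9 genes (HLA-C with ACM below and NLRC5 with ACM above), against 9.77% of all genes (5.02% below and 4.75% above). The difference was negative for 7 of the 9 and for 49.6% of all genes. The median was -0.26 over the 9 genes, 0.00 over all genes and -0.09 in the top tertile, and after quantile normalization these were -0.10, -0.01 and -0.02. The interval of the lead probe excluded a 2-fold change for 5 of the 9, which were the 4 heavy chains and TAP2. That of the second TAP2 probe (-0.65 to 1.28) did not, and the slides are not taken into account.

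The difference between the passages was tested as an interaction. No unadjusted limma p was 0.05 or less among the 9 genes (0.294 for HLA-C to 0.886 for TAP1), against 8.24% of all genes, and 0 of the 9 passed the call, which 6.86% of all genes did. The interaction was -0.31 for HLA-C, with an interval of -0.94 to 0.31. It was -0.29 for B2M, with an interval of -1.21 to 0.62, and 0.45 for TAPBP, with an interval of -0.53 to 1.42. These intervals include values as large as the differences between media at either passage.

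The control cultures alone showed how far the levels moved without ACM. From P1 DMEM to P3 DMEM the mean of B2M was higher by 0.49, that of HLA-C by 0.30, that of HLA-F by 0.27 and that of HLA-B by 0.26. TAPBP moved by -0.72 and NLRC5 by -0.38 over the same step. For HLA-B, HLA-C, HLA-F, B2M and TAPBP this step in control medium was as large as or larger than the P1 difference between media. Within slide 3, which held both control groups, the step was 0.00 or less for the 4 heavy chains, TAP1 and TAP2, 0.48 for B2M and -0.92 for TAPBP, from 1 P1 array and 3 P3 arrays.

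The means of slides 1, 2 and 3 were 2.37, 2.72 and 3.08 for B2M, 2.14, 2.58 and 2.92 for TAP1, 5.05, 5.10 and 5.49 for HLA-B and 5.19, 5.26 and 5.75 for HLA-C. They ran the other way for NLRC5, at -1.48, -2.17 and -2.43, and for TAPBP, at 1.05, 0.79 and 0.65. Slide 2 was the only 1 with both media, as P3 ACM and P1 DMEM with 2 arrays each. There ACM minus DMEM was 0.01 for HLA-B, -0.05 for HLA-C, 0.01 for HLA-E, 0.24 for HLA-F, 0.03 for B2M and 0.10 for TAP1. It was -0.15 for TAP2, -0.48 for TAPBP and -0.22 for NLRC5. Passage differed as well between these arrays. The ACM and DMEM means of HLA-B, HLA-C, HLA-E, B2M and TAP1 thus differed by 0.10 or less, and that of NLRC5 was lower in ACM. Single arrays could lie further apart, as for B2M, at 2.55 and 2.92 in P3 ACM and at 2.64 and 2.77 in P1 DMEM.

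With slide as a fixed block in the limma fit, 7 of the 9 P1 differences and 4 of the 9 P3 differences changed sign. At P1 they became 0.13 for B2M, 0.34 for TAP1 and -0.33 for NLRC5, while TAP2 stayed at -0.30. At P3 HLA-C became -0.03 and TAP1 0.31, while B2M stayed at -0.45. With this block every unadjusted limma p of the 9 genes was 0.236 or more. Some of the values that changed sign were near 0, as for HLA-B, at 0.00 at P1 and 0.01 at P3. No slide held both media of a passage, so the blocked values rest on comparisons across passages. With slide as a random block the P1 difference of NLRC5 was 0.29 (limma p of 0.304) and the P3 difference of HLA-C was -0.37 (limma p of 0.171). In the authors' table under its own labels the P3 differences were 0.61 for B2M, 0.54 for TAP1, 0.05 for HLA-C and -0.73 for NLRC5, opposite to those from the scanner files. At P1 that table gave values between -0.27 and 0.21 for all 9 genes.

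**Figure D3:**
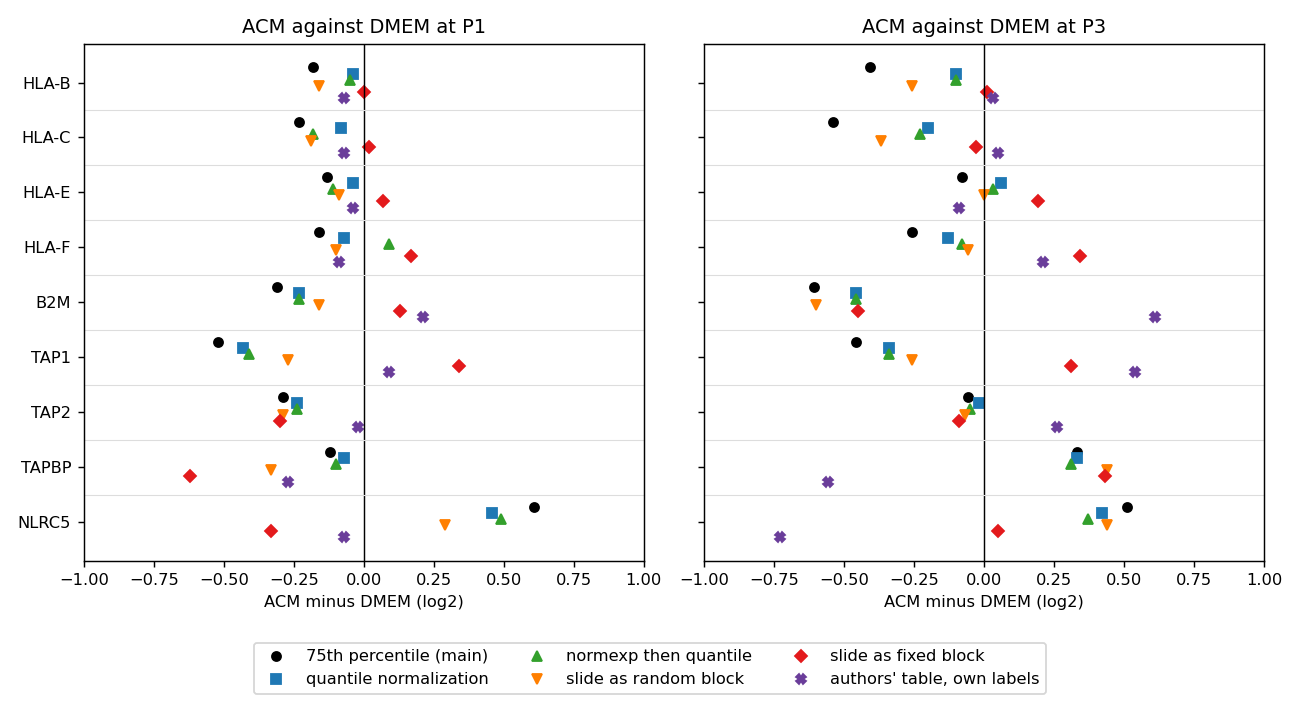
Difference between ACM and DMEM (log2) for the lead probe of each gene at P1 (left) and P3 (right), under the main scaling, 2 other normalizations, slide as a fixed or random block, and the authors' table under its own labels. At P3 the black point and the cross of B2M lie at -0.61 and 0.61, and those of NLRC5 at 0.51 and -0.73.

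Most of the genes moved together from array to array. Over the 12 arrays Pearson's r was 0.94 between HLA-B and HLA-C, 0.87 between HLA-B and HLA-F, 0.86 between HLA-B and TAP1 and 0.83 between B2M and TAP1. After the group means were taken out these were 0.87, 0.86, 0.81 and 0.75, so the arrays of a group also varied together. TAP2 followed less closely, with r of 0.42 with TAP1 and 0.29 with B2M. TAPBP had r of -0.73 with B2M, and NLRC5 had r of -0.84 with TAP1 and -0.77 with B2M. After slide means were taken out these were -0.70, -0.34 and -0.67. The arrays share 3 slides and 4 groups, and the HLA probes may share transcripts, so these coefficients are descriptions. These and the coefficients below were computed under the 75th percentile scaling only. HLA-B had an intensity of 67400 in P1 DMEM replicates 2 and 3, but levels of 4.97 and 5.50. The 75th percentiles (log2) of these arrays were 11.069 and 10.542. The part of this scaling in the coefficients was not tested.

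The mean of the 9 standardized levels (each gene centred on its mean and divided by its SD over the 12 arrays) was highest in P3 DMEM replicate 3 (1.07), P1 DMEM replicate 3 (0.88) and P3 DMEM replicate 2 (0.60), all on slide 3. The fourth array of that slide, P3 DMEM replicate 1, was among the lowest at -0.49, and P1 ACM replicate 1 was lowest at -0.72. The 6 ACM arrays lay between -0.72 and 0.02. Of the 15510 genes with a symbol that were well above background on all arrays, those most like this mean by Pearson's r included CASP4 (0.941), ABR (0.937), CASP5 (0.932) and GBP3 (0.926). CASP4 and CASP5 are inflammatory caspases, and GBP3 is an interferon-induced GTPase. The genes most like B2M alone were TTC1 (0.972), U2AF1 (0.971), KRABD4 (0.968), ZFHX3 (0.968) and TOX4 (0.967). U2AF1 is a splicing factor and ZFHX3 a transcription factor.

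Interferon-stimulated genes that are not class I genes were followed with a list of 23, of which 22 were measured and 21 were well above background on all arrays. The mean standardized level of these 21 had r of 0.89 with that of the class I genes over the 12 arrays (Spearman's rho 0.76), 0.73 without the 2 arrays farthest out (P3 DMEM replicate 3 and P1 DMEM replicate 3) and 0.79 after slide means were taken out. By gene, r was 0.90 for HLA-C, 0.88 for HLA-B, 0.86 for TAP1, 0.82 for HLA-F, 0.77 for HLA-E and 0.71 for B2M. It was 0.27 for TAP2, -0.18 for TAPBP and -0.54 for NLRC5. After slide means were taken out it was 0.53 to 0.88 for the first 6 genes, 0.10 for TAP2, 0.08 for TAPBP and -0.04 for NLRC5. None of these coefficients was computed after quantile normalization.

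**Figure D4:**
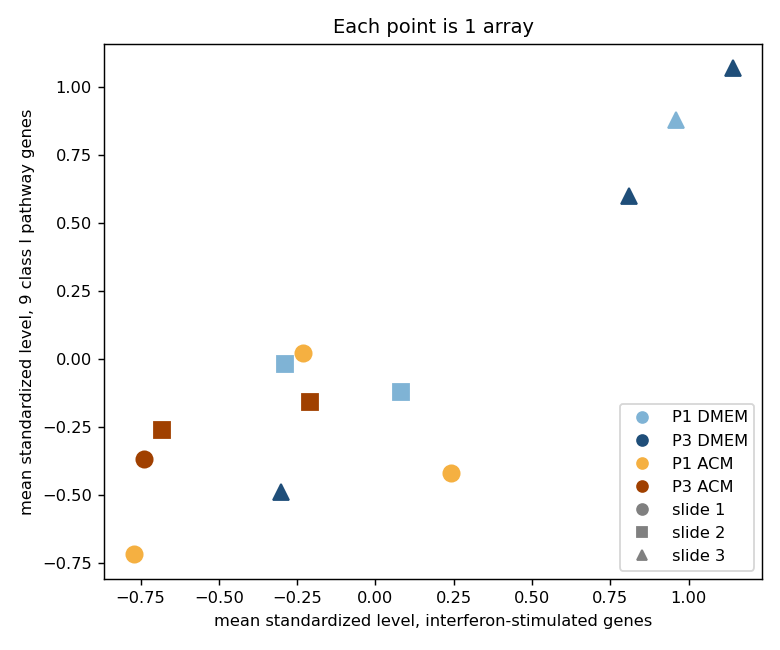
Mean standardized level of the 9 class I pathway genes (vertical) against that of 21 other interferon-stimulated genes (horizontal), 1 point per array, with colour for the group and shape for the slide. The 3 points at the upper right are slide 3 arrays in DMEM (0.60 to 1.07 on the vertical axis), and the other 9 lie between -0.72 and 0.02.

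At P3, 6 of the 22 interferon-stimulated genes fell by the call in ACM, where 0.819% of all genes did, and none (0) rose. Among these 6, the largest falls were in RSAD2, which encodes the antiviral protein viperin (-2.13, unadjusted limma p of 0.00291), BST2, the virion tether tetherin (-1.70, limma p of 0.0241), IFIT3, a partner in sensing viral RNA (-1.53, limma p of 0.0405), and PARP9 (-1.32, limma p of 0.0427). Their adjusted p was 0.612 to 0.702. The median of the list was -0.75 at P3 and -0.42 at P1, where 0 of 22 passed the call and 3 had an unadjusted limma p of 0.05 or less, all lower. The P3 median became 0.07 with slide as a fixed block and 0.62 in the authors' table under its own labels, so its direction has the same limits as that of the class I genes.

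The steps that feed the class I genes showed no called gene, where 13.6% of all genes were called at P1 and 1.73% at P3. Of 7 peptide loading and trimming genes 0 passed the call at either passage, and the largest P1 differences were 0.65 for TAPBPL, a tapasin relative, and -0.52 for ERAP2, which trims peptides (unadjusted limma p of 0.00381, adjusted p = 0.103). ERAP2 was at -0.37 at P3. Its P1 and P3 values were -0.61 and -0.42 with slide as a fixed block, and -0.01 and 0.15 in the authors' table. TAPBPL changed sign at P1 in both, to -0.59 with slide as a fixed block and -0.43 in the authors' table. Of 5 immunoproteasome genes 0 passed, with medians of -0.16 at P1 and -0.30 at P3. The largest P1 differences there were -0.34 for the catalytic subunit PSMB10 and -0.31 for the proteasome activator PSME2, and their P3 values were -0.59 and -0.47. The 5 constitutive proteasome counterparts had medians of -0.12 and -0.30, near those of the immunoproteasome, with 0.39 for PSME3 and -0.30 for the assembly factor POMP at P1. With slide as a fixed block these 2 genes were at -0.02 and -0.58 at P1, and in the authors' table at -0.48 and -0.02. PSMB9, the neighbour of TAP1, was at -0.14 at P1 and -0.18 at P3.

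Among 17 interferon and NF-kB regulators 0 passed the call at either passage, where 13.6% of all genes did at P1 and 1.73% at P3. IRF1, a transcription factor of class I promoters, was at -0.91 at P1 (unadjusted limma p of 0.0457) and -0.34 at P3. With slide as a fixed block IRF1 was at -0.44 and 0.95, and in the authors' table at -0.19 and 0.43. SOCS1, the feedback inhibitor of JAK signalling, was at 0.59 (limma p of 0.0394) and 0.46. Its values were -0.21 and -0.03 with slide as a fixed block, and -0.09 and -0.67 in the authors' table. The smallest unadjusted limma p of the list, 0.0061 (adjusted 0.637), was that of the interferon receptor chain IFNAR2 at P3, at 0.68, but 0.01 with slide as a fixed block and -0.49 in the authors' table, and this gene is named after its values were seen. Of 9 enhanceosome factors and CIITA, the class II counterpart of NLRC5, 0 passed. CIITA was at 0.80 at P1 (limma p of 0.0174), but at 0.37 after quantile normalization, -0.41 with slide as a fixed block and -0.21 in the authors' table. NFYA, a CCAAT-binding subunit, was at 0.31. Of the polycomb repressors EZH2 was at -0.35 at P1 and -0.48 at P3 (limma p of 0.0401) and SUZ12 at -0.11 and 0.23, none of them called, and EED was not analysed here. EZH2 became 0.26 at P1 and -0.41 at P3 with slide as a fixed block, and 0.15 and 0.41 in the authors' table.

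Of 10 class I-like genes and natural killer ligands, 1 passed the call at P1, where 13.6% of all genes did, and 0 at P3. CD1D, which presents lipids, was higher in ACM at P1 by 1.75 (unadjusted limma p of 0.0179), with 1 of 3 P1 DMEM arrays well above background, and was at -0.91 with slide as a fixed block. Of 9 MHC class II genes HLA-DRA alone passed, higher by 1.1 at P1 (limma p of 0.0235), where 13.6% of all genes passed. It was at 0.53 after quantile normalization, 1.52 with slide as a fixed block and -0.34 in the authors' table. Both genes were dim, with P1 means in ACM and DMEM of -4.65 and -6.39 for CD1D and -3.66 and -4.76 for HLA-DRA. The median P1 difference of all genes in the bottom tertile of signal was 0.84. The median of the class II genes was 0.37 at P1 and 0.12 at P3. Of 8 genes of class I export, endocytosis and degradation 0 passed, and the largest P1 differences were -0.33 for SYVN1 and -0.26 for SEL1L, parts of a ubiquitin ligase of the endoplasmic reticulum. With slide as a fixed block SYVN1 and SEL1L were at 0.22 and -0.39 at P1, and in the authors' table at 0.18 and -0.03.

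**Figure D5:**
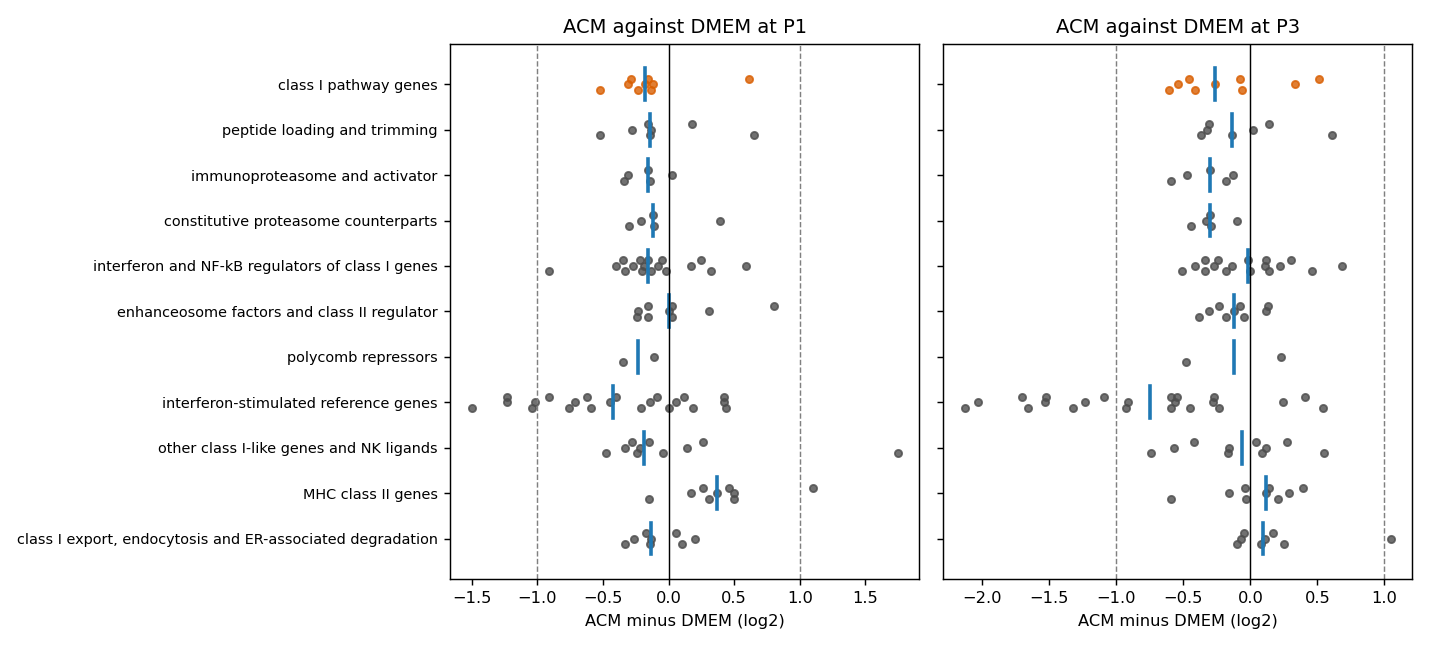
Difference between ACM and DMEM (log2) at P1 (left) and P3 (right) for each measured gene of the class I pathway (orange) and of 10 related lists (grey), with blue bars for the list medians and dashed lines at 2-fold. The median of the 9 class I pathway genes is -0.18 at P1 and -0.26 at P3, and the interferon-stimulated genes reach -2.13 at P3.

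Markers of other cells were read for RNA that did not come from Daoy. Of 7 astrocyte markers GFAP did not pass the filter. S100B was at least 2.22-fold higher in P1 ACM than in P1 DMEM, where 0 of 3 arrays were well above background, and ALDH1L1 was higher by 1.65. AQP4 was at -1.37 at P1 and -1.94 at P3. GJA1 was at -0.11, SLC1A3 at 0.16 and SLC1A2 at 0.67 at P1. Of the 6 measured astrocyte markers 2 were called higher and 1 lower at P1, where 13.5% and 0.0989% of all genes were. Of 7 microglia and leukocyte markers, cells that carry much class I, AIF1 did not pass the filter. CX3CR1 was higher by 2.16 at P1, with 1 of 3 P1 DMEM arrays well above background, and CD68 was higher by 1.22 at P3. Of the 6 measured, 1 was called higher at each passage, where 13.5% of all genes were at P1 and 0.914% at P3. Differences were positive for 6 at P1 and 5 at P3. PTPRC was at 0.75 and ITGAM at 0.68 at P3. In the authors' table CD68, PTPRC and ITGAM were at -0.61, -0.36 and -1.11 at P3. CD68, PTPRC, ITGAM, CSF1R and TYROBP were well above background on all 12 arrays, those of DMEM included. At P3 S100B was at 0.03 and CX3CR1 at -0.12, each with 1 of 3 ACM arrays and 3 of 3 DMEM arrays well above background. The median P1 difference of all genes in the bottom tertile of signal was 0.84. Under the fixed slide block S100B was at -0.18, CX3CR1 at -0.18 and ALDH1L1 at 0.27 at P1. The part of these markers, and of the share of probes above background, in the class I values was not tested.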

How the data were processed

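RNA from Daoy cells of 4 groups (P1 ACM, P1 DMEM, P3 ACM and P3 DMEM, 3 arrays each) was measured on single-colour Agilent arrays, and samples were grouped by their labels. The authors deposited scanner output (Agilent Feature Extraction 11.0.1.1) with an intensity per spot, corrected for background by that software but not scaled across arrays, and a table of log2 values that the authors processed further. No spot was saturated. After control and outlier spots were removed, the mean of a probe's spots was put on the log2 scale and the 75th percentile of its array subtracted. Kept were 31078 of 34127 probes, which were well above background on all arrays of 1 group or more. RefSeq symbols (GRCh38.p14) were found for 75.5% of probes. 1 item of the class I gene set and 1 of the genes most like it are not reported here.

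All 12 arrays entered 1 fit of group means in limma 3.58.1 (R 4.3.3), with 8 residual degrees of freedom, two-sided tests and Benjamini-Hochberg adjustment over the kept probes. The call of more than 2-fold with p of 0.05 or less is that of the study's methods. The fit was tested on simulated data. P-values measure the spread between these samples only, and the number of arrays limits the precision. The class I genes and all lists were chosen with earlier results of these data known. Named were all 9 genes, the called genes of each other list (at most 4 per passage, otherwise the 2 with the largest P1 difference), and the 5 genes most like the class I mean and B2M. Other genes are named where they bear on these.

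At P1 the deviations of same-numbered samples from their group means correlated by 0.43, 0.19 and 0.27, so the numbers were taken to pair them, and at P3 by 0.23, -0.19 and 0.06, so they were not. Alternatives were quantile normalization with or without prior normexp (offset 50, on median spot signals), the authors' table, looser and stricter filters, eBayes with trend, the compared arrays alone, the replicate block, slide as a fixed or random block, the methods' t-test, the mean of a gene's probes and the removal of single arrays. Figures were drawn with matplotlib 3.10.9.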

Additional observations from a re-analysis of the deposited data

How the results depend on the processing

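The count of class I genes past the call was 0 at P1, at P3 and for the difference between passages under every alternative that was run, the replicate block included. The methods' t-test and the compared arrays alone give no value for the difference between passages. Of the differences of the 9 genes, these changed sign. Quantile normalization gave 0.06 for HLA-E at P3, and normexp before it 0.09 for HLA-F at P1 and 0.03 for HLA-E at P3. The authors' table under its own labels gave 0.21 for B2M, 0.09 for TAP1 and -0.07 for NLRC5 at P1. At P3 it gave 0.03 for HLA-B, 0.05 for HLA-C, 0.21 for HLA-F, 0.61 for B2M, 0.54 for TAP1, 0.26 for TAP2, -0.56 for TAPBP and -0.73 for NLRC5. Slide as a fixed block gave 0.00 for HLA-B, 0.02 for HLA-C, 0.07 for HLA-E, 0.17 for HLA-F, 0.13 for B2M, 0.34 for TAP1 and -0.33 for NLRC5 at P1, and 0.01 for HLA-B, 0.19 for HLA-E, 0.34 for HLA-F and 0.31 for TAP1 at P3. Slide as a random block gave 0.00 for HLA-E at P3. The mean of a gene's probes gave 0.15 for HLA-F and 0.06 for TAPBP at P1 and 0.13 for TAP2 at P3. Leaving out single arrays, the P1 range was -0.28 to 0.02 for HLA-F and -0.25 to 0.01 for TAPBP, and the P3 range was -0.19 to 0.06 for TAP2 (0.06 and 0.03 without replicate 3 of ACM or DMEM), -0.01 to 0.58 for TAPBP, -0.94 to -0.27 for B2M and 0.21 to 0.69 for NLRC5. The causes were not tested.

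The replicate block pairs same-numbered samples at both passages, although the P3 numbers were not taken to pair them. It gave unadjusted limma p-values of 0.0166 for TAP1 at P1 and of 0.0441 for B2M, 0.0269 for TAP1 and 0.0411 for NLRC5 at P3. Their adjusted p was 0.138 to 0.595, and no call changed. The P3 difference of HLA-C had an unadjusted limma p of 0.284 after quantile normalization (-0.20), 0.19 after normexp (-0.23) and 0.0559 with the compared arrays alone, and of 0.0531 without P3 ACM replicate 2 (-0.52). Unadjusted limma p-values passed below 0.05 with trend and robust eBayes at P3 for HLA-B (0.0283), B2M (0.0398) and NLRC5 (0.0462), with the stricter filter for NLRC5 at P3 (0.0427) and with the compared arrays alone for TAP1 at P1 (0.036). Without P3 DMEM replicate 1 they did so at P3 for HLA-B (-0.57), B2M (-0.94) and TAP1 (-0.71), without P3 ACM replicate 3 for B2M (-0.77) and NLRC5 (0.69), without P3 ACM replicate 2 for NLRC5 (0.61) and without P1 DMEM replicate 3 for HLA-B (-0.41). The P1 difference of NLRC5 had an unadjusted limma p of 0.0701 without P1 ACM replicate 2, 0.0657 without P1 DMEM replicate 3 and 0.255 with the mean of its probes (0.25). Its adjusted p by limma was 0.146, and it ranged from 0.0118 (without P3 ACM replicate 1) and 0.0246 (the compared arrays alone) to 1 (slide as a random block), with 0.037 by the methods' t-test. All 15 probes were well above background on each array, but the median P1 difference of all genes rose from -0.08 in the top tertile of signal to 0.14 in the middle (that of NLRC5) and 0.84 in the bottom tertile, and its part in these values was not tested. The slides, the conflicting labels of the 2 deposited files and probes that may bind several heavy chains limit every difference.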
